A study of Homo sapiens with 2 samples.

Results

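In the human erythroid leukaemia line F36P, an established cell line, peaks of H3K27ac were examined at 10 genes of the NOTCH pathway. H3K27ac is the acetylation of histone H3 at lysine 27, found at promoters and enhancers in use. The genes were NOTCH1, NOTCH2 and NOTCH3 (receptors), JAG1 and JAG2 (ligands), RBPJ and MAML1 (nuclear complex), and HES1, HES4 and HES6 (the HES family of repressors). Every peak inside one of these 10 gene records, or within 50 kb of it, was taken, which gave 26 of 19671 peaks in the ERG library and 12 of 9161 peaks in the Vector library. The gene records were 10 of the 20037 protein-coding records of the RefSeq table. For the ERG library the cells had been transduced with the retroviral plasmid MSCV-PIG-AM-ERG, which carries the ETS-family transcription factor ERG, and its label gives ERG overexpression as the genotype. For the Vector library they had been transduced with the empty MSCV-PIG plasmid, and the label is WT. Both were under puromycin at 1 µg/ml for 4 days. What AM stands for in the plasmid's name is not known here. Each group was 1 library of 1 cell line, so no test between the groups was possible, no p-value is given, and every difference below is between these 2 libraries.

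NOTCH receptors are cut after a ligand of a neighbouring cell binds them, and the released inner part moves to the nucleus. There it joins the DNA-binding protein RBPJ and a Mastermind coactivator such as MAML1, which recruits histone acetyltransferases to target genes such as HES1. Without that inner part RBPJ binds corepressors that include histone deacetylases. In blood, NOTCH1 is best known for its role in T cell development and T cell leukaemia.

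The sequence before 5 of the start sites is shown. Each of them had a peak within 1 kb except that of HES1, where the nearest lay 1.13 kb away. NOTCH1, which also had a peak within 1 kb of its start site, is not shown. Each run covers 170 bases before the RefSeq start site to 5 bases after it, 5′ to 3′ in the direction of transcription (RefSeq, GRCh38.p14). Capitals mark matches, on either strand, to the RBPJ site TGGGAA, to the ETS letters CCGGAA or AGGAAG, or to the N-box CACNAG, which HES proteins are known to bind.
HES1: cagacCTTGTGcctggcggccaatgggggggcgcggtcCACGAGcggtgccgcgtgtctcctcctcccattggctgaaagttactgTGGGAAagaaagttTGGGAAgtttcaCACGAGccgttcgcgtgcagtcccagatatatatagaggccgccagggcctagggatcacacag
RBPJ: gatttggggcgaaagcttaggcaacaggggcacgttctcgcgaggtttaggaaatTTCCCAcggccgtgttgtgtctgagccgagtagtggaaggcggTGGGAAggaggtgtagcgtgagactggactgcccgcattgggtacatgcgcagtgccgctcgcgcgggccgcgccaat
HES6: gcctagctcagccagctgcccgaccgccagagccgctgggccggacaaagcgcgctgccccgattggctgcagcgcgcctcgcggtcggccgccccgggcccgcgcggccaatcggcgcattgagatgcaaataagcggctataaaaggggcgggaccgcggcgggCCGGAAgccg
MAML1: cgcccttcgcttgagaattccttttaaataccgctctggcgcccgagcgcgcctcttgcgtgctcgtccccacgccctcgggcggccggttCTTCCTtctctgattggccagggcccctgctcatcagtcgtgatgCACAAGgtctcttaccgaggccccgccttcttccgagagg
JAG1: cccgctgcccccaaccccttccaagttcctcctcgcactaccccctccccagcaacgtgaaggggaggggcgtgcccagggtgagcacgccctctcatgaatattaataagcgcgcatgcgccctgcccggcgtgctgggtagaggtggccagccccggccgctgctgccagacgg
On the plus strand, HES1 lies at chr3:194135978-194136153, RBPJ at chr4:26319576-26319751 and MAML1 at chr5:179732652-179732827. On the minus strand, HES6 lies at chr2:238240033-238240208 and JAG1 at chr20:10673994-10674169. The RBPJ run belongs to the start site at 26319746, which is 1 of the 5 that RefSeq lists for this gene. The windows of 300 bases at its starts 26321014 and 26321228, which lie under an ERG-library peak, hold none of the marked letters.

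At 8 of the 10 genes there were more H3K27ac peaks nearby in the ERG library, beside 54.1% of all genes, and the other 2, NOTCH3 and JAG2, had none in either. Within the windows, 6 genes had peaks in both libraries and 2, NOTCH2 and JAG1, in the ERG library alone, beside 58.1% and 15.9% of all genes. None had them in the Vector library alone, beside 0.349%. The ERG-library peaks covered 22523 bp in all and the Vector-library peaks 7065 bp, and the ERG-library cover was the longer one at 8 of the 10 genes, close to the 73.0% of all genes. A peak lay within 1 kb of a start site in the ERG library alone for NOTCH1, JAG1 and HES6, and in both libraries for RBPJ and MAML1. No start site had one in the Vector library alone, beside 0.322% of all genes. The counts of 3 and 2 of 10 genes stand beside 16.1% and 33.2% of the 15843 protein-coding genes with a listed start site. The other 5 genes, NOTCH2, NOTCH3, JAG2, HES1 and HES4, had none there in either library, as had 50.4% of all genes. At a −log10 q-value of at least 5 the start-site peaks of NOTCH1 and HES6 were no longer counted, that of JAG1 was still in the ERG library alone, and RBPJ had one in the ERG library alone. Covered length was at least 2-fold longer in the ERG library at 7 of the 10 genes, beside 53.0% of all genes, and at none was it so in the Vector library, beside 0.384%. Among the 8 genes without a Vector-library start-site peak, 3 had an ERG-library one, which is 37.5% (exact 95% interval 8.52 to 75.5). The share was 24.2% over all genes and lay inside that interval. The median difference in covered length (ERG minus Vector library) was 1226.5 bp over the 10 genes and 801 bp over all genes.

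**Figure D1:**
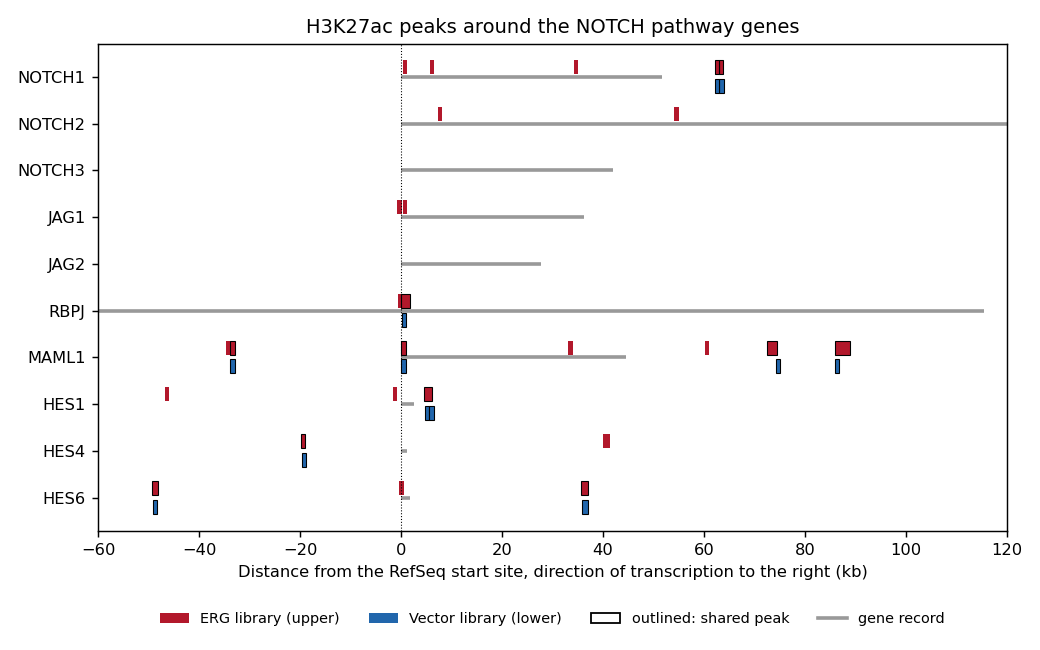
H3K27ac peaks around the 10 NOTCH pathway genes, as distance in kb from the RefSeq start site with transcription to the right. For RBPJ the start site at 26319746 was used. Blocks above each line are ERG-library peaks and blocks below it are Vector-library peaks, outlined where a peak overlaps one of the other library; peaks narrower than 0.9 kb are drawn that wide, and the records of NOTCH2 and RBPJ run past the axis. Each of the 12 Vector-library blocks has an ERG-library block opposite, while 15 of 26 ERG-library blocks have none below them.

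Total read numbers of the libraries were not analysed here, and the genome background under the peak calls, the fragments expected at a position by chance, served as the measure of depth. It was 2.31 fragments in the ERG library against 1.60 in the Vector library, a ratio of 1.44. Fragments at a peak's summit were computed from the deposited values. In the ERG library 58.9% of all peaks had no overlapping Vector-library peak. Near the 10 genes the share was 15 of 26, or 57.7% (exact interval 36.9 to 76.6), so it was not apart from the whole list. In the other direction 0 of 12 Vector-library peaks lacked an ERG-library peak (upper bound 26.5%), beside 8.97% of that whole list. The part that depth and the general height of the peaks play in the differences below was not tested, beyond the scaled values that are given. All intervals cover counting error only, and covered lengths carry no error because there was no replicate.

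NOTCH1, the receptor gene on chromosome 9 from 136494433 to 136546048 (hg38, minus strand), had 3 peaks within its record in the ERG library and none in the Vector library. The peak nearest to its start site, at 136545423 to 136545723, began 325 bp downstream of it and had 18 fragments at its summit over a local background of 4.43. The next, 5.71 kb downstream at 136540004 to 136540341, had 25 fragments over 5.91, and that farthest in, 34.2 kb downstream at 136511525 to 136511886, had 22 over 6.19. These were weak and narrow peaks. By the peak caller's p-value the 3 stood above only 14.6%, 32.0% and 15.8% of the ERG list, and their widths were 301, 338 and 362 bp. Outside the record, both libraries had a pair of peaks at SEC16A, a gene of secretory transport, 10.5 and 11.3 kb beyond the far end of NOTCH1. The SEC16A pair held the strongest signal in the NOTCH1 window, with 105 and 80 fragments in the ERG library against 47 and 54 in the Vector library. Both of the NOTCH1 window's Vector-library peaks, and its whole Vector-library covered length of 934 bp, thus lay at SEC16A. The ERG-library covered length in the window was 2272 bp, SEC16A included.

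NOTCH2, the receptor gene on chromosome 1 from 119911553 to 120069662 (minus strand), had 2 ERG-library peaks inside it and no Vector-library peak within 50 kb. The peak at 120061810 to 120062433, 7.23 kb downstream of the start site, had 20 fragments over a background of 4.56. The peak at 120015246 to 120015588, 54.1 kb downstream, had 24 fragments over 6.70. NOTCH2 shares near-identical sequence with the NOTCH2NL genes of the same chromosome, and no source used here says how reads that fit several places were treated, so both peaks are uncertain. Those copies also had ERG-library peaks inside their records, 4 at NOTCH2NLR, 4 at NOTCH2NLA, 3 at NOTCH2NLB and 4 at NOTCH2NLC. The Vector library had 1 inside NOTCH2NLA, 1 inside NOTCH2NLB and none inside the other two. NOTCH3, on chromosome 19 from 15159038 to 15200995, had no peak in either library inside it or within 50 kb. No receptor gene therefore had a Vector-library peak within its own record.

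JAG1, which encodes a membrane-bound NOTCH ligand, carried peaks on both sides of its start site in the ERG library and none in the Vector library. Its record lies on chromosome 20 from 10637684 to 10673999 on the minus strand. The peak inside the gene, 358 bp downstream of the start site at 10673182 to 10673641, had 24 fragments over a background of 5.57. The upstream peak, at 10674157 to 10674786 and 158 bp before the start site, had 23 fragments over 5.40. The 515 bp gap between them held the start site and most of the printed JAG1 run, in which none of the searched letters were found. JAG2, the other Jagged ligand gene, on chromosome 14 from 105140995 to 105168776, had no peak inside it or within 50 kb in either library.

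RBPJ, the DNA-binding factor on which NOTCH signalling converges, had start-site peaks in both libraries, over a longer stretch in the ERG library. The record lies on chromosome 4 from 26105449 to 26435131 on the plus strand. The ERG library had a peak of 1775 bp at 26319804 to 26321578, which contains the start sites at 26321014 and 26321228 and has 40 fragments at its summit over a background of 9.80. The Vector-library peak, at 26319829 to 26320216, was 388 bp wide with 15 fragments over 3.54, stood above only 8.10% of its list, and began 83 bp downstream of the start site at 26319746. A further ERG-library peak without a counterpart, at 26319091 to 26319466, had 32 fragments over 9.40 and ended 280 bp before that start site. The start site at 26319746, and the letters TGGGAA at -72 and, on the other strand, at -115 (the start site counted as 0), thus lay in a gap of 337 bp between the 2 ERG-library peaks. The start sites at 26163458 and 26343140 had no peak within 1 kb in either library. Covered length was 2151 bp in the ERG library against 388 bp in the Vector library, a ratio of 5.54.

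MAML1, the Mastermind coactivator gene, had the strongest start-site peak of the 10 genes in each library. The record lies on chromosome 5 from 179732822 to 179777283 on the plus strand. The ERG-library peak at 179732846 to 179733666 had 45 fragments over a background of 6.79, and the Vector-library peak at 179732876 to 179733473 had 34 over 3.46. They began 24 and 54 bp downstream of the start site, and the deposited fold enrichment was 5.91 in the ERG library against 7.85 in the Vector library. A second peak inside MAML1, at 179765922 to 179766346, was found in the ERG library alone, with 26 fragments over 6.08. The MAML1 window had the longest cover of the 10 genes, 8005 bp in the ERG library against 2287 bp in the Vector library, but most of it lay at its neighbours. CANX, a chaperone gene of the endoplasmic reticulum, had 2 ERG-library peaks and 1 Vector-library peak. SQSTM1, the autophagy receptor gene, had ERG-library peaks of 1994 and 2906 bp against Vector-library peaks of 355 and 726 bp. The peak of 1994 bp also reached into MGAT4B, and that of 2906 bp was wider than 99.9% of the ERG list. A peak at 179792929 to 179793782 in the ERG library alone, with 40 fragments, lay 204 bp from LTC4S, a leukotriene synthesis gene.

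**Figure D2:**
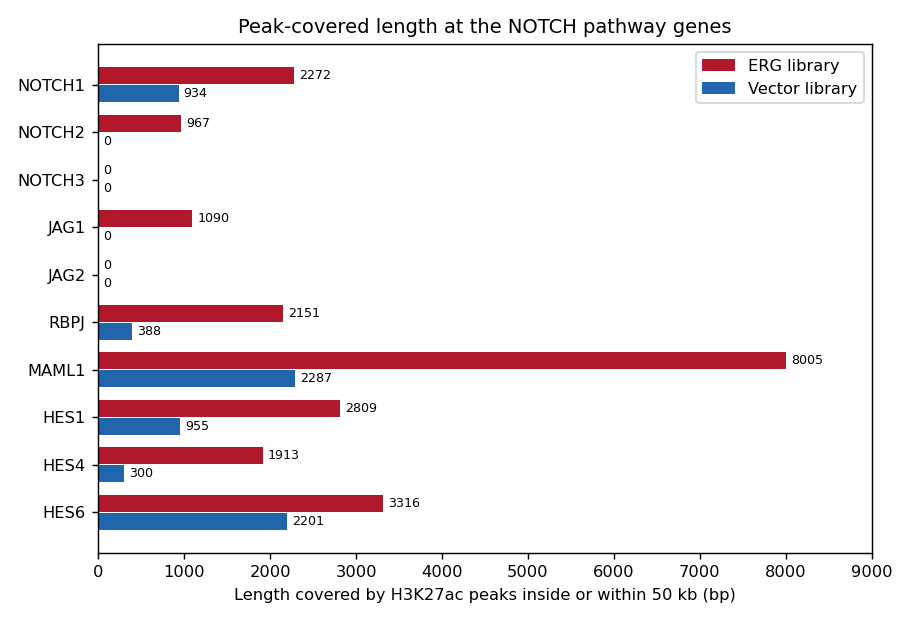
Length in bp covered by H3K27ac peaks inside or within 50 kb of each of the 10 genes, with the ERG library above the Vector library. Bars start at 0 and the number at each bar is its length. The ERG-library bar is longer at 8 of 10 genes, beside 73.0% of all genes, and NOTCH3 and JAG2 have 0 bp in both libraries.

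HES1, the best-known NOTCH target, a repressor of differentiation genes, had peaks beside its record and none within 1 kb of its start site. The record lies on chromosome 3 from 194136148 to 194138732 on the plus strand. Its strongest peak lay 1.99 kb past the far end of the record, at 194140718 to 194142253 in the ERG library, with 122 fragments over a background of 23.3. Of the 26 ERG-library peaks it had the most fragments. In the Vector library the same stretch held 2 peaks separated by 335 bp, at 194140855 to 194141399 with 38 fragments over 8.98 and at 194141735 to 194142144 with 37 over 8.75. The ERG-library peak spanned both, and its summit lay 18 bp from that of the stronger Vector-library peak. Upstream, a peak at 194134506 to 194135021 was in the ERG library alone, 1.13 kb before the start site, with 39 fragments over a background of 12.4. Another, at 194089325 to 194090081 and 46.1 kb upstream, was also in the ERG library alone, with 22 fragments, and lay in the record of LOC102724877. No peak of either library overlapped the printed HES1 run, which holds TGGGAA at -84 and -70.

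HES6, a HES family gene that, unlike HES1, is known to favour differentiation in nerve and muscle cells of the mouse, had an ERG-library peak across its start site. The record lies on chromosome 2 from 238238267 to 238240038 on the minus strand. The peak at 238239743 to 238240462 covered all 300 bases of the RefSeq promoter window, had 20 fragments over a background of 4.89, and stood above 19.8% of the ERG list. No Vector-library peak overlapped it. Its printed sequence holds CCGGAA at -4, so that the ETS letters reach over the start site. The stronger peaks of the HES6 window were those of the neighbours ILKAP and PER2, of which PER2 is a circadian clock gene. ILKAP had 67 fragments in the ERG library against 37 in the Vector library, and PER2 had 54 and 30. The PER2 pair, at 48.1 and 48.4 kb from HES6, lay just inside the 50 kb limit. Just outside it were an ERG-library peak without a counterpart 53.5 kb from HES1, with 23 fragments, a shared pair 54.2 and 54.4 kb from MAML1, with 27 fragments in the ERG library against 12 in the Vector library, and a shared pair at INPP5E 54.6 and 54.7 kb from NOTCH1, with 34 against 20. HES6 was the single gene with peaks in both libraries whose cover differed by less than 2-fold, at 3316 bp in the ERG library against 2201 bp in the Vector library.

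HES4, on chromosome 1 from 998964 to 1000097, had no peak inside it or within 10 kb in either library. Its window held a shared peak 146 bp from AGRN in the ERG library, at 1019527 to 1019974 with 37 fragments, and at 1019527 to 1019826 with 24 fragments in the Vector library. It also held a peak of 1465 bp at NOC2L, at 958727 to 960191, in the ERG library alone. With 50 fragments over a background of 7.87 this was the strongest of the 15 unshared peaks. The HES4 values of 1913 bp in the ERG library against 300 bp in the Vector library are therefore those of its neighbours.

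**Figure D3:**
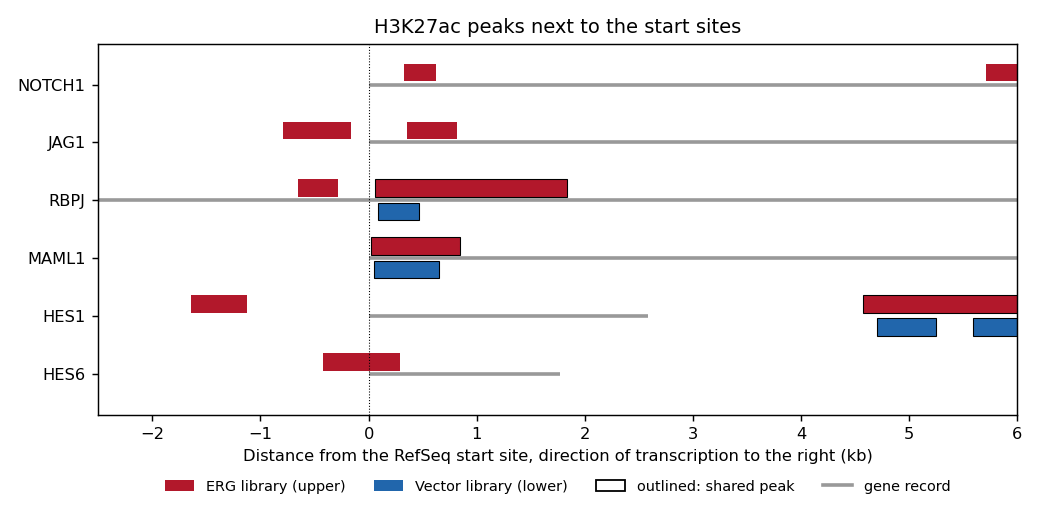
Peaks next to the start sites of 6 genes on a finer scale, in kb from the RefSeq start site with transcription to the right, drawn to scale. Upper blocks are ERG-library peaks, lower blocks Vector-library peaks, and outlined blocks are shared. ERG-library peaks of JAG1 and RBPJ lie on both sides of the start site, that of HES6 lies across it, and HES1 has none within 1 kb of it.

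The peaks of the ERG library alone were weaker and narrower than the shared ones. The 15 unshared peaks had a median of 24 summit fragments (18 to 50) and a median width of 460 bp, and the 11 shared ones a median of 54 fragments (37 to 122) and of 1258 bp. The whole ERG list showed the same order, with medians of 27 and 58 fragments and of 486 and 946 bp. Inside the 10 records 9 of the 11 ERG-library peaks were unshared, beside 52.6% of all ERG-library peaks inside a protein-coding gene record, and this difference was not tested. Of the 12 Vector-library peaks, 2 lay inside a record, those of RBPJ and MAML1. The 10 others lay outside, 2 of them beside HES1 and 8 at or near neighbouring genes.

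The unshared peaks were scaled in 2 ways and set against the lowest -log10 p-value of the Vector list, without calling peaks anew. With fragments and background both divided by 1.44, all 15 passed the lowest -log10 p-value of the Vector list, beside 92.3% of all unshared ERG-library peaks. The median ratio of summit fragments (ERG over Vector library) was 2.07 over 8071 shared peaks, larger than the ratio of backgrounds of 1.44. What part of it depth plays was not tested. The other scaling, chosen after seeing the data, lowers every summit relative to its background. With summit fragments divided by 2.07 and background by 1.44, 2 of the 15 passed, beside 38.2% of all unshared peaks. These were the peaks at NOC2L and beside LTC4S, and neither lies at one of the 10 genes. The start-site peaks of NOTCH1, JAG1 and HES6 were not among the 2 that passed. Whether they differ between the libraries beyond the general ratio was not tested.

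Summit fragments at shared peaks near the 10 genes gave wide intervals, and the peak past HES1 lay above the general ratio. Of 11 shared ERG-library peaks, 8 had a ratio (ERG over Vector library) below the median of all shared peaks and 3 above it, those of HES1, RBPJ and 1 of the SEC16A peaks. The exact 95% interval included that median for 10 of the 11, and the ratio of backgrounds, 1.44, for 9 of the 11, so most of these peaks cannot be told apart from either. The exception to the median was the peak past HES1, with 122 fragments in the ERG library against 38 in the Vector library, a ratio of 3.21 (2.21 to 4.75). This ratio was the largest of the 11 and was singled out after they were seen. It was above 93.8% of all shared peaks, so within their spread, and 1.55 (1.07 to 2.30) times their median. The local background moved with it, at 23.3 fragments in the ERG library against 8.98 in the Vector library. The lowest ratio of the 11 was at the MAML1 start site, 1.32 (0.829 to 2.13), with 45 fragments in the ERG library against 34 in the Vector library. RBPJ had a ratio of 2.67 (1.44 to 5.20), from 40 fragments in the ERG library against 15 in the Vector library, but its 2 summits lay 771 bp apart. Summits lay within 50 bp of each other at 7 of the 11.

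**Figure D4:**
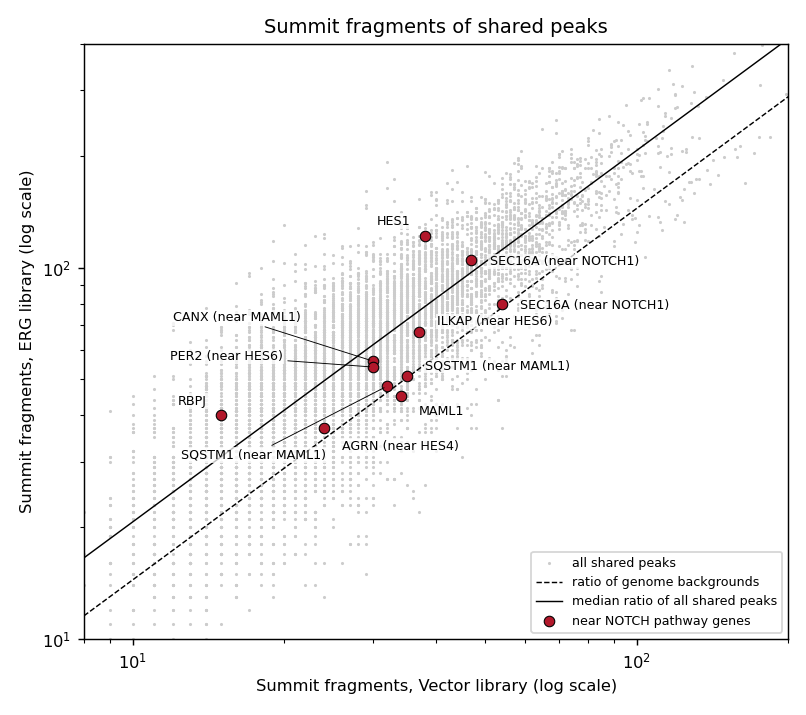
Summit fragments of shared peaks in the ERG library (vertical, log scale) against the Vector library (horizontal, log scale). Grey points are all shared peaks, red points the 11 near the NOTCH pathway genes, named by the gene nearest to each, the dashed line is the ratio of genome backgrounds (1.44) and the solid line the median ratio of all shared peaks (2.07). HES1, with 122 fragments in the ERG library against 38 in the Vector library, lies above the solid line, and MAML1, with 45 and 34, just below the dashed one.

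In the promoter windows of the 10 genes, 14 of 300 bases each with RefSeq's several RBPJ starts included, TGGGAA was found in 3, those of HES1, HES4 and the RBPJ start at 26319746. Over all 22199 windows of protein-coding genes 22.7% hold it. HES1 and that RBPJ window hold it 2 times each, and 3.50% of all windows hold it at least 2 times. CCGGAA was found in 1 of the 14 (HES6), beside 21.2% of all, and AGGAAG in 3 (NOTCH2, MAML1 and the RBPJ start at 26163458), beside 33.5%. The N-box CACNAG was found in 6, beside 36.9%, with 4 matches in HES1. Neither AGATAA, 1 form of the GATA site (7.91% of all windows), nor CACGTG (8.34%) was found in any. Other forms of the GATA site were not searched, so its absence is not shown. Both strands were searched, and no match overlapped one of another motif, while the 2 N-box matches in the NOTCH1 window overlapped each other. The share of G and C was 59.0% at HES1 to 79.7% at JAG2, with 35.3% and 35.7% at 2 of the RBPJ windows, and its median was 65.3% over start windows of genes with a peak in both libraries and 58.7% over those of genes with one in neither. Over those with a peak in the ERG library alone, as at HES6 (78.0%), the median was 63.7%. JAG2 and NOTCH3 (78.3%) had no peak. A link between the share of G and C and the peaks was not tested.

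In the wider pathway, start-site peaks shared by both libraries were found at genes for processing, modification, coactivators and corepressors, and at 0 receptors, ligands and targets. The difference between these roles was not tested. Counted as targets were the HES and HEY genes, HES6 included, and NRARP, and no response of theirs to NOTCH was measured here. Of 64 further pathway genes 63 matched the gene table and 53 had a listed start site. Of these 53, 28 had a start-site peak in both libraries and 18 had none, beside 33.2% and 50.4% of all genes. The ERG library alone had one at 7 genes and the Vector library alone at 0, beside 0.322% of all genes for Vector alone. Out of 25 genes with no such Vector-library peak, these 7 amount to 28.0% (exact interval 12.1 to 49.4), and the 24.2% of all genes lies inside that range. With the 10 genes added, 0 of 18 receptors, ligands and targets had a peak in both libraries, 3 had it in the ERG library alone (NOTCH1, JAG1 and HES6) and 15 in neither. For all genes the shares were 33.2%, 16.1% and 50.4%, so that 3 of 18 is near the share of all genes. Of the 45 others, RBPJ and MAML1 among them, 30 had it in both, 7 in the ERG library alone and 8 in neither. Of 9 HES and HEY genes with a listed start, HES6 was the single one with a start-site peak in either library. The other 8 had none, as had 50.4% of all genes, and this difference was not tested.

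The receptor NOTCH4 and the ligands DLL4 and DLK2 had no start-site peak. Within 50 kb, covered length was 1186 bp in the ERG library against 405 bp in the Vector library for NOTCH4, 1977 and 687 bp for DLL4, and 825 and 0 bp for DLK2. DLL1, DLL3 and DLK1 had no listed start and were covered over 1224, 2988 and 4462 bp in the ERG library, against 328, 1636 and 2050 bp in the Vector library. None of these 6 had a peak inside its record, so the cover lay around them. Of 7 genes for receptor processing with a listed start, 6 had a start-site peak in both libraries, among them ADAM10, which makes the outer cut, and NCSTN, a gamma-secretase subunit. PSEN2, a catalytic gamma-secretase subunit, had it in the ERG library alone. Of 4 glycosyltransferase genes with a listed start, POFUT1 and POGLUT1 had it in both libraries. LFNG and RFNG, Fringe enzymes that tune ligand choice, had it in the ERG library alone, beside 16.1% of all genes. Their start-site peaks lay outside their records. Among the genes listed as corepressors 9 of 13 had it in both and 3, RBPJL among them, in neither. Among coactivators it was 3 of 7 in both and 2 in neither. For all genes the shares were 33.2% and 50.4%. The roles are those of the list and were not checked here.

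The largest differences in covered length among these genes were at FURIN, the protease that matures the receptor (9595 bp in the ERG library against 3655 bp in the Vector library), and MAML3, a paralogue of MAML1 (6248 and 1255 bp). Inside its record MAML3 had 6 peaks in the ERG library against 3 in the Vector library, and its start-site peak was in the ERG library alone. MIB2, a ligand ubiquitin ligase, was covered over 8485 bp in the ERG library against 4624 bp in the Vector library, and SPEN, an RBPJ corepressor, over 6455 and 2965 bp. RITA1, which exports RBPJ from the nucleus, was covered over 4866 and 1658 bp, and RFNG over 6737 and 3874 bp. The corepressor NCOR1 was covered over 4217 and 1532 bp. All these lengths are those of the 50 kb windows, neighbouring genes included. Of the ERG-library peaks, 1 of 7 lay inside the record of FURIN, 1 of 7 inside MIB2 and 2 of 7 inside SPEN. At RITA1 it was 1 of 6, at RFNG 0 of 7 and at NCOR1 1 of 3, while MAML3 had 6 of 8. The Vector-library cover was the longer one at the ubiquitin ligase gene NEURL1, with 836 bp in the ERG library against 1282 bp in the Vector library, and likewise at DTX3, with 438 and 483 bp, both named after their values were seen. At least 2-fold longer cover in the ERG library was found at 38 of the 63, beside 53.0% of all genes.

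**Figure D5:**
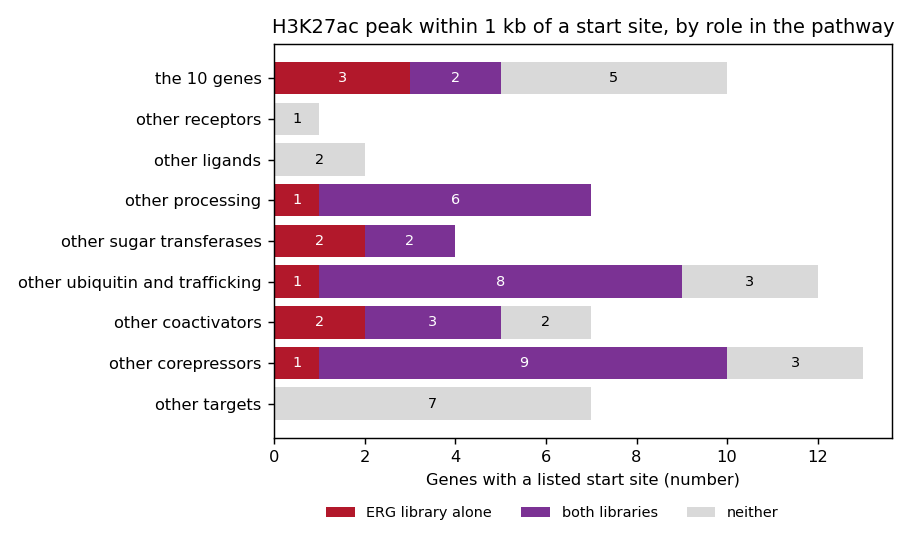
Number of genes with an H3K27ac peak within 1 kb of a listed start site in the ERG library alone, in both libraries or in neither, for the 10 genes and for the further pathway genes by role. No gene of either set had such a peak in the Vector library alone, beside 0.322% of all genes. Of the 18 receptors, ligands and targets 0 had such a peak in both libraries, while 30 of the 45 other genes did. The share of all genes was 33.2%, and the difference between roles was not tested.

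The erythroid label of the line was checked against marker genes. Of 6 erythroid markers with a listed start, 5 had a start-site peak in both libraries and ALAS2 in the ERG library alone, beside 33.2% and 16.1% of all genes. All 10 erythroid markers were covered within 50 kb in the ERG library, and 9 of them in the Vector library, while 25.6% of all genes had no peak there in either. None of 6 T cell markers with a listed start had a start-site peak in either library, beside 50.4% of all genes, and CD3D, CD3E, IL7R and BCL11B had no peak within 50 kb. The 4 other T cell markers had peaks around them but none inside their records. Of 5 endothelial markers 4 had no peak within 50 kb, and PECAM1 had 2 peaks inside its record in the ERG library and none in the Vector library. Of 5 fibroblast markers 4 had none within 50 kb, and COL1A1 had none inside its record.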

How the data were processed

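The data were 2 peak lists of H3K27ac chromatin immunoprecipitation, 1 per group, so n was 1 and the p-values of the lists measure no spread between samples. Per the labels' protocols, chromatin was digested with micrococcal nuclease. Per the submitters' processing notes, Bowtie2, MACS2 and deepTools were used with hg38; no versions or settings are stated. No source used here says whether there was an input library. The deposited values are the peak caller's fold (a ratio at the summit over the local background), its −log10 p-value and −log10 q-value, and a score, which is the −log10 q-value times 10. The deposited lists were called per library.

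Fragments at each summit and the local background were computed from the deposited fold and −log10 p-value by the MACS2 formulas; whole numbers came out for 19650 ERG-library and 9150 Vector-library peaks (relative error below 0.0001), and for all those named. The lowest background served as the depth. Where an ERG-library peak overlapped several Vector-library peaks, the one with the most fragments was used. A peak was shared on an overlap of 1 bp. Genes came from RefSeq GRCh38.p14, with the chromosome coordinates of hg38; start sites were listed for 15843 of 20037 protein-coding genes, and CIR1 matched no single record. The strand of the promoter windows was checked on 1110 overlapping windows of opposite genes, all reverse complements. Exon and UTR positions were not used. Intervals are exact (Clopper-Pearson, or conditional for ratios). The calculations were tested on simulated data. Python 3.11.15, numpy 2.4.6, scipy 1.17.1 and pandas 2.3.3 were used.

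The 10 genes, the further pathway genes, the markers and the alternatives were chosen with earlier results of these data known. The genes named are the 10, the receptors and ligands of the wider list, and its 8 largest differences in covered length, of which 1 is not reported here; examples of other roles were named after their values were seen.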

Additional observations from a re-analysis of the deposited data

How the results depend on the processing

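No paired analysis was possible because each group had 1 library. At most of the changed settings below no share over all peaks or all genes was computed. Whether the changes are particular to these genes was therefore not tested. Widening the window to 100 kb, asking for an overlap of 50%, asking for a −log10 q-value of 2, scaling fragments and background to the Vector library's depth, or leaving out NOTCH2 and RBPJ moved none of the peak counts, shares, covered lengths or counts of genes with 2-fold longer cover that were recomputed by over 1.5 times. Without NOTCH2 and RBPJ, a start-site setting chosen after seeing the data, 1 gene (MAML1) had a start-site peak in both libraries, while 3 had it in the ERG library alone. Within 10 kb, and likewise for peaks whose nearest record is 1 of the 10 genes, there were 14 ERG-library and 4 Vector-library peaks, 78.6% of those of the ERG library unshared, covering 9227 bp in the ERG library against 1941 bp in the Vector library. Inside the records alone there were 11 ERG-library and 2 Vector-library peaks, covering 6121 bp in the ERG library against 986 bp in the Vector library. Of these ERG-library peaks 81.8% were unshared, beside 52.6% of all ERG-library peaks inside a protein-coding gene record. When just the strongest 9161 ERG-library peaks were used, 10 of them remained near the 10 genes, 10.0% unshared, covering 10757 bp. In that setting 1 gene had at least 2-fold longer cover in the ERG library, and start-site peaks were in the ERG library alone at 0 genes, in both at 1 (MAML1) and in the Vector library alone at 1 (RBPJ). A setting chosen after seeing the data divided summit fragments by the ratio at shared peaks and background by the ratio of backgrounds. It left 13 ERG-library peaks, 15.4% unshared, with 3 genes of at least 2-fold longer cover. Start-site peaks in the ERG library alone were then found at 0 genes. A −log10 q-value of 5 left 1 gene (MAML1) with a start-site peak in both libraries, while JAG1 and RBPJ had it in the ERG library alone, with NOTCH1 and HES6 lost. Asking that the peak covers the start site left 0 in both, while HES6 and RBPJ had it in the ERG library alone, with NOTCH1, JAG1 and MAML1 lost. With 2.5 kb in place of 1 kb, HES1 joined the genes with a start-site peak in the ERG library alone. The median ratio of summit fragments at the 11 shared peaks was 1.25 times the ratio of backgrounds but 0.870 times the median of all shared peaks, so its direction depends on the scale. Depth limits what was seen: the weakest peaks had 9 fragments in the ERG library against 8 in the Vector library, so an absent peak is not an absent mark.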
